A study of Harpegnathos saltator with 36 samples.

Results

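Brain and ovary were compared within revertants of the ant Harpegnathos saltator. Revertants are ants that had become egg-laying gamergates, the pseudo-queens of a colony without a queen, and were then turned back into non-reproductive workers. The comparison used every revertant library of these tissues, 4 brains and 4 ovaries, which are 8 of the 36 samples of the series and 8 of the 24 whose counts were used here. Each library came from 1 ant, a revertant brain being the central brain without optic lobes and a revertant ovary the whole organ. The labels do not say which brain and ovary libraries share an ant. In revertants, libraries with the same number were taken as 1 ant, since their values deviated together, though weakly (correlations of 0.156 to 0.260). In gamergates and workers this did not hold for every number, and the main test uses no pairing. The revertants came from a caste transition of 3 months in which they became gamergates, were isolated for 4 weeks, and then lived for about 2 months in an established colony whose members policed them, so that they were about 6 months old at dissection. Gamergates and workers, with 4 brain and 4 ovary libraries each, are used here only to show where the difference between tissues was not that of revertants. They came from the transition colony and the revertants from the reversion colony, so that caste and colony cannot be told apart. Gamergates had gone through a caste transition of the same length as that of the revertants. Ants of every caste were dissected at the same age. The labels name no treatment and no altered gene for any group.

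The insect brain is built of neurons and glia, and it is also an endocrine organ: clusters of its neurons release neuropeptides, among them insulin-like peptides, into the blood. The ovary consists of tubes, the ovarioles, in which germline cells divide, endoreplicate and mature into eggs within a layer of somatic follicle cells, wrapped in a sheath that holds muscle. In most insects insulin from the brain promotes the growth of egg chambers, the fat body makes the yolk protein vitellogenin, and the oocyte takes it up through the vitellogenin receptor.

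Brains and ovaries were run on different sequencing lanes in every caste, so tissue and lane cannot be told apart in revertants and no value within a lane can be given. The revertant brain libraries held between 4115800 and 12917125 counts and the revertant ovary libraries between 1663266 and 7391217, so that 3 counts correspond to 0.232 to 0.729 CPM (the count divided by the library's size and scaled to a fixed total) in a brain and to 0.406 to 1.80 CPM in an ovary. These limits cover counting error only. Levels are given throughout as CPM scaled across the libraries compared, and gene length is not taken into account, so that levels are compared between tissues and not between genes. Replicate libraries differed by more than counting error in both tissues. Correlations of log2 CPM ran from 0.971 to 0.987 among brains, from 0.901 to 0.976 among ovaries and from 0.564 to 0.641 between tissues. The median SD of log2 CPM was 0.156 in brain and 0.374 in ovary, and 85.5% of tested genes had the larger SD in ovary. The correlation was 0.976 between ovaries 2 and 3 and 0.942 between ovaries 1 and 4, but 0.901 to 0.919 across these pairs. Ovaries 2 and 3, which stand apart from ovaries 1 and 4 in this way, were also the ovaries with more than 3500000 counts. The comparison was therefore also made with the 6 libraries above that size, the 4 brains and ovaries 2 and 3, and the counts of a list are given for this set where they differed from those of all 8 libraries.

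The tissues of revertants differed in most genes. Of 9768 genes tested, 3162 (32.4%) were higher and 3225 (33%) were lower in brain than in ovary at an adjusted p under 0.05 in edgeR's quasi-likelihood test, which is 65.4% of tested genes in either direction, while 3381 did not pass. Among the 2449 tested genes with a characterized protein name, from which the lists that follow are drawn, 67.1% were called, 35.8% higher and 31.3% lower. These shares are the background for the counts of each list. The names come almost wholly from the study's lists of genes that differed between gamergates and workers or revertants in some tissue. A list therefore holds the members of a family named there, and not all of its genes in this ant. The 2 directions differed in size more than in number. The median log2 fold change of brain over ovary was 1.75 among genes higher in brain and −1.03 among genes lower in brain, against −0.04 over all tested genes. A change of at least 3 on the log2 scale was seen in 920 genes higher in brain and in 330 genes lower in brain, and one of at least 5 in 424 and 114 genes. In 61.3% of tested genes the libraries of the tissues did not overlap, with every brain above every ovary in 31.1% and every brain below every ovary in 30.1%. Scaling by library size alone, without TMM factors, gave 2357 genes higher and 4451 lower in brain and moved the median of all genes to −0.40, so that calls on changes smaller than this shift depend on the scaling. With the libraries over 3500000 counts alone 3696 genes were higher and 3752 lower of 10020 tested. Since each library is a bulk sample, fewer cells of a type and less RNA per cell cannot be told apart for any of these genes.

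**Figure D1:**
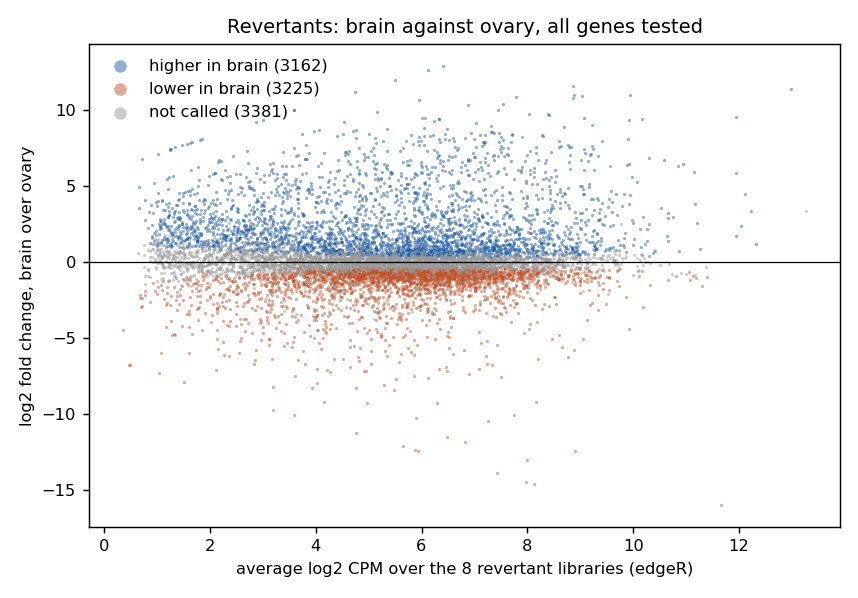
Log2 fold change of brain over ovary in revertants (vertical axis) against the average log2 CPM of each tested gene over the 8 libraries (horizontal axis), with genes called higher in brain in blue, genes called lower in orange and uncalled genes in grey. Of 9768 genes, 3162 lie above 0 and 3225 below it with an adjusted p under 0.05, and the upper side reaches further, with 424 called genes at 5 or more against 114 at −5 or less.

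Genes of neurons differed strongly toward the brain. Of 14 neuropeptide precursors, 13 were higher in brain and 1 did not pass, against 32.4% higher among all tested genes and 35.8% among named genes, with a median log2 fold change of 7.28, which is the same when the 1 precursor without a read in ovary is set at its bound. Pro-corazonin (Crz, LOC105191954), the precursor of a neuropeptide linked to worker behaviour in this ant, stood at 59.7, 69.8, 62.1 and 87.1 CPM in brains 1 to 4, against 0, 0, 0.161 and 0 CPM in ovaries 1 to 4. All 4 brains were far above all ovaries, which held 1 read of this gene in all. The ratio of summed counts was 1276 with a 95% counting interval of 229 to 50424, and the adjusted p was 2.5e-07. SIFamide-related peptide (LOC105187830), known in flies from a handful of brain neurons, stood at 50.7, 45.4, 56.7 and 55.8 CPM in brains and had no read in any ovary. With 3 counts over the 4 ovaries together as the floor, it was at least 325-fold higher in brain. CAPA peptides-like (LOC105187972), diuretic peptide precursors in other insects, stood at 119.5, 149.6, 153 and 83.9 CPM in brains, against 0, 0.247, 0 and 0.417 CPM in ovaries, a ratio of 840 with a counting interval of 287 to 4074. No ovary reached any brain in these 3 genes. ITG-like peptide (LOC105189902), a predicted neuropeptide precursor outside the list, stood at 987, 913, 972 and 893 CPM in brains, against 0, 0.371, 0.322 and 1.25 CPM in ovaries. Allatostatin A and allatostatin C, which inhibit hormone and gut functions in other insects, had log2 fold changes of 6.65 ± 0.34 (SE) and 7.83 ± 0.47. Here and below the SE is the absolute log2 fold change divided by the square root of the test's F statistic. It is not a fitted standard error and may be too small where a tissue holds few reads.

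The one precursor that did not pass was ion transport peptide (LOC105181971), a hormone of water balance. It stood at 35.5, 20.8, 22.4 and 44.5 CPM in brains, against 16.1, 35.7, 29.3 and 68.4 CPM in ovaries, with overlapping libraries and a log2 fold change of −0.29 (adjusted p = 0.57). The summed level of the 14 precursors was 900 to 1013 CPM in brains and 29.8 to 80.9 CPM in ovaries.

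Genes of the synapse followed the same direction. Of 14 genes of synaptic vesicle release, 12 were higher and 1 was lower in brain, with a median of 4.79. Synapsin (LOC105185002), which tethers synaptic vesicles, stood at 1564, 1388, 1263 and 1162 CPM in brains, against 8.58, 3.71, 2.896 and 7.93 CPM in ovaries (log2 fold change 7.97 ± 0.41, adjusted p = 7.4e-07). Complexin (LOC105192558), which clamps vesicle fusion until calcium enters, stood at 205, 287, 305 and 237 CPM in brains, against 1.01, 1.85, 0.804 and 1.67 CPM in ovaries. Synaptotagmin 1 (LOC105183410), the calcium sensor of release, had a log2 fold change of 5.52 ± 0.24. Every brain was above every ovary for these 3 genes. One synaptic vesicle glycoprotein 2B gene (LOC105181288) was lower in brain, at 5.296, 4.59, 6.88 and 3.51 CPM, against 14.1, 19.9, 9.17 and 12.5 CPM in ovaries, while the other gene of that name (LOC105183477) was higher in brain, with a log2 fold change of 3.02. Vesicle-associated membrane protein 2 (LOC105189535), a fusion protein of vesicles, stood at 57.02, 61.5, 54.2 and 66.1 CPM in brains and 61.04, 62.2, 61.3 and 97.2 CPM in ovaries and was not called (adjusted p = 0.26), except that it was called lower in brain, at −0.60, with scaling by library size alone and, at −0.40, in a fit of all 24 libraries.

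Transmitter receptors and enzymes were also mostly brain genes. Of 12 ligand-gated receptors, 10 were higher and 2 were lower in brain, with a median of 5.37, and 9 were higher and 2 lower with the libraries over 3500000 counts. A gamma-aminobutyric acid receptor subunit (LOC105182093), part of an inhibitory chloride channel, stood at 1163, 932, 749 and 866 CPM in brains, against 0.504, 0.494, 0.161 and 1.25 CPM in ovaries (log2 fold change 10.80 ± 0.42, adjusted p = 1.8e-07). A neuronal acetylcholine receptor subunit alpha-4 (LOC105185235), part of an excitatory channel, stood at 906, 1219, 1087 and 1089 CPM in brains, against 1.01, 1.11, 0.965 and 3.75 CPM in ovaries, where ovary 4 was the highest. Cholinergic genes outside the list were among the 10 named genes with the largest differences toward brain. Acetylcholinesterase (LOC105184473), which breaks down acetylcholine, stood at 204, 488, 369.8 and 425 CPM in brains, against 0, 0.494, 0.161 and 0 CPM in ovaries. The high-affinity choline transporter 1 (LOC105190808), which takes choline back up, stood at 737, 740.3, 669.7 and 576 CPM in brains, against 3.03, 0.494, 0.322 and 0.834 CPM in ovaries. Both were higher in every brain than in any ovary, which was a condition for entering this set of 10 and is no separate result. Not every receptor of this list was a brain gene: 2 kainate-type glutamate receptor genes were lower in brain, LOC105191208 with a log2 fold change of −1.49 and LOC105182764 with one of −1.93.

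Vesicular glutamate transporter 1 (LOC105183414), which loads glutamate into vesicles, stood at 133, 152, 143 and 119 CPM in brains with no read in any ovary, which makes it at least 851-fold higher in brain. Dopamine N-acetyltransferase (LOC105185886), which inactivates dopamine and other amines, stood at 133, 191, 190.0 and 159 CPM in brains, also with no read in any ovary, and was at least 1048-fold higher. These belong to a set of 21 genes that had at least 10 reads in every brain and none in any ovary, and they were chosen for the text after their values were seen.

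Of 11 genes of biogenic amine signalling, 9 were higher in brain, none was lower and 2 did not pass, with a median of 5.85. Dopamine receptor 1 (LOC105182732) stood at 325, 319.7, 248 and 301.6 CPM in brains, against 5.55, 4.57, 5.15 and 5.42 CPM in ovaries (log2 fold change 5.87 ± 0.16). Dopamine receptor 2, 5-hydroxytryptamine receptor 1 and the octopamine receptor beta-1R had log2 fold changes of 8.73, 6.46 and 5.85, so that receptors of dopamine, serotonin and octopamine were all higher in brain. With the libraries over 3500000 counts 10 were higher. The genes that did not pass were the decarboxylase and a transporter. Aromatic-L-amino-acid decarboxylase (LOC105186470), which makes dopamine and serotonin and also serves cuticle tanning, stood at 62.3, 45.1, 52.2 and 41.8 CPM in brains, against 96.4, 5.56, 4.34 and 266 CPM in ovaries. Ovaries 1 and 4 lay above all brains and ovaries 2 and 3 below them. Its log2 fold change was −0.86 with all 8 libraries, where it was not called, and 3.29 with the libraries over 3500000 counts, where it was called higher in brain (adjusted p = 5.6e-06). The sodium-dependent dopamine transporter gene (LOC105189735) stood at 12.4, 9.89, 13.9 and 12.7 CPM in brains and 12.1, 12.4, 15.3 and 15.9 CPM in ovaries (adjusted p = 0.37), and was called lower, at −0.55, only with scaling by library size alone.

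All 9 voltage-gated ion channel genes were higher in brain, with a median of 4.16. The sodium channel protein para (LOC105181102), which carries the action potential, stood at 1534, 1512, 1239.8 and 1335 CPM in brains, against 72.6, 128, 65.6 and 45.5 CPM in ovaries. The auxiliary subunit tipE (LOC112588023), which in flies raises the sodium current, stood at 652, 576, 413 and 449 CPM in brains, against 0, 0.494, 0.804 and 0.834 CPM in ovaries. No ovary reached any brain in either gene, which for tipE was a condition of its choice. The ovaries held 45.5 to 128 CPM of para and at most 0.834 CPM of tipE.

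**Figure D2:**
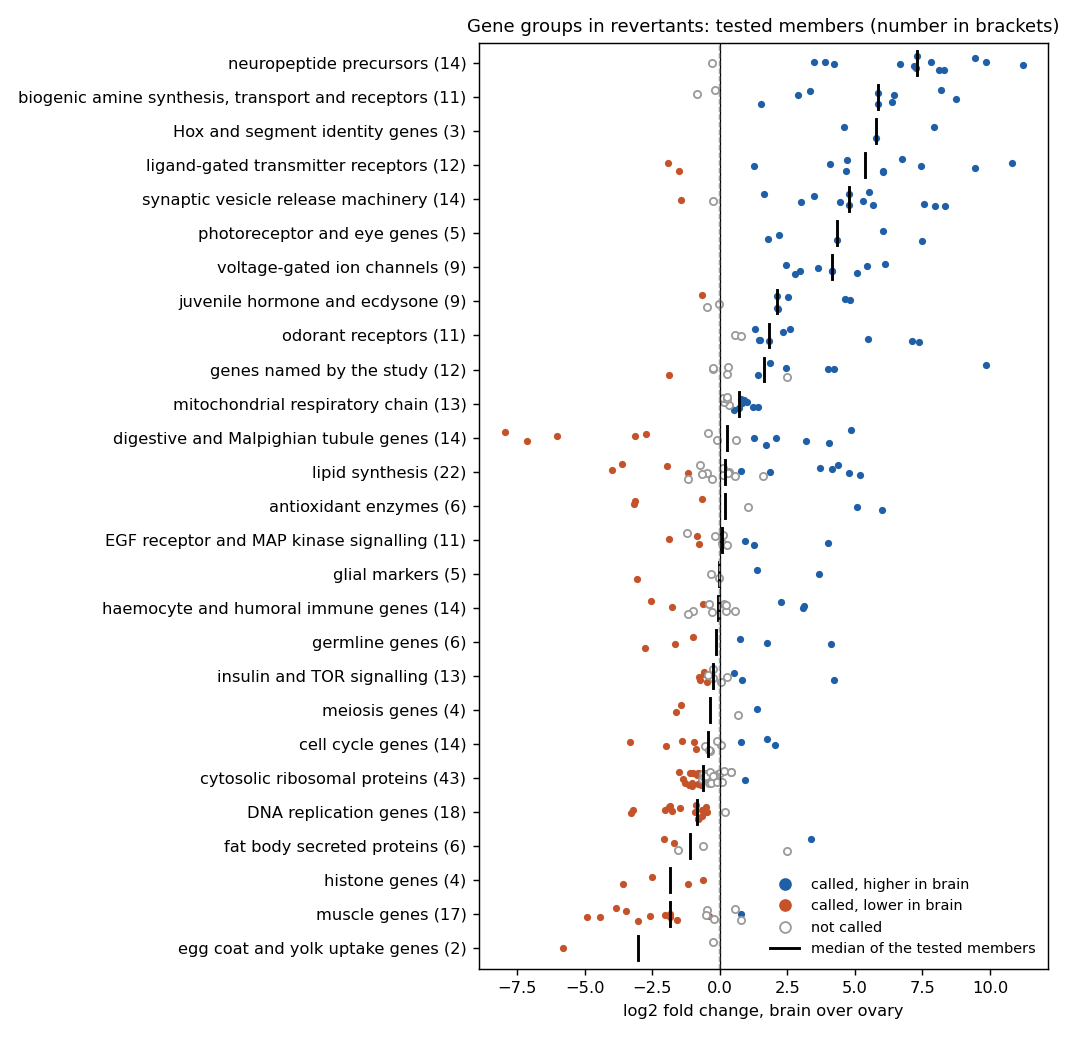
Log2 fold change of brain over ovary of every tested member of each gene list (points), with the list's median (bar) and called members filled. Neuropeptide precursors have the highest median, 7.28, and lie almost wholly above 0, whereas DNA replication genes, with a median of −0.84, and histone genes and muscle genes, both with a median of −1.84, lie mostly below it.

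The checks of tissue identity did not all follow neurons. Of 5 glial markers, 2 were higher in brain, 1 was lower and 2 did not pass, with a median of −0.01. Shares of 35.8% higher and 31.3% lower among named genes stand beside these counts. Glutamine synthetase 2 cytoplasmic (LOC105186780), which recycles glutamate in glia, stood at 1416, 1486, 1437 and 2177 CPM in brains, against 268, 107, 69.01 and 71.7 CPM in ovaries. The glutamate transporter excitatory amino acid transporter 1 (LOC105188843) stood at 148, 64.8, 59.1 and 80.7 CPM in brains and 116, 99.2, 77.5 and 62.2 CPM in ovaries and was not called (adjusted p = 0.98). All 5 photoreceptor and eye genes were higher in brain although optic lobes had been removed, with a median of 4.35. Rhodopsin (LOC105189783) varied most among them, at 174, 13.6, 80.2 and 35.9 CPM in brains, against 5.04, 2.97, 2.09 and 6.26 CPM in ovaries, and the ultraviolet-sensitive opsin (LOC105192184) stood at 56.3, 49.3, 43.4 and 45.3 CPM in brains, against 6.56, 11.5, 11.9 and 11.7 CPM in ovaries. Of 19 odorant receptor genes, which serve smell in antennal neurons, 11 were tested and 9 were higher in brain (median 1.82, also with the 2 genes without a read in ovary at their bounds), which became 12 of 13 with the libraries over 3500000 counts, with a summed level of 55.2 to 64.1 CPM in brains and 12.2 to 24.7 CPM in ovaries. With libraries thinned to the smallest, 0 odorant receptor genes had enough reads to be tested. The part of retinal or antennal tissue in the values of these 2 lists was not tested.

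In the ovary the largest difference of a named gene that serves eggs was that of the vitellogenin receptor (LOC105182956), which stood at 15.2, 11.1, 15.1 and 25.9 CPM in brains, against 292, 1351, 1885 and 149 CPM in ovaries. It fell by 5.79 ± 0.87 on the log2 scale in brain (adjusted p = 4.3e-04). Every ovary was above every brain, and ovaries 2 and 3 were far above ovaries 1 and 4. The other gene of the egg list that could be tested, torso-like protein (LOC105180591), which is made by follicle cells in flies, stood at 43.1, 34.3, 36.03 and 26.7 CPM in brains and 54.99, 14.5, 13.8 and 86.3 CPM in ovaries and was not called, although with the libraries over 3500000 counts its log2 fold change was 1.27 and it was called. The third, serine protease nudel, was at 0.809 CPM or less in every brain and at 3.53 CPM or less in every ovary and was not tested.

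Germline genes by name were found in both directions. Of 6, 3 were higher and 3 were lower in brain, against 35.8% higher and 31.3% lower among named genes. A list of 6 genes is too small to be set apart from these shares, which also stand beside the meiosis genes below. The piRNA-pathway gene piwi-like protein Siwi (LOC105184384), which silences transposons in germ cells, stood at 62.1, 64.03, 58.8 and 60.96 CPM in brains, against 266, 135, 149.8 and 228 CPM in ovaries, and fell by 1.66 ± 0.22 on the log2 scale in brain. Tudor domain-containing protein 7 (LOC105182385), of germ granules, and transcriptional regulator ovo (LOC105182594), needed for oogenesis in flies, were lower in brain as well, with log2 fold changes of −1.001 and −2.77. By contrast a cytoplasmic polyadenylation element-binding gene (LOC105182900), of a family that acts on stored mRNA in oocytes and at synapses, stood at 681, 678, 619 and 621 CPM in brains, against 32.8, 32.5, 24.6 and 59.2 CPM in ovaries. Pumilio homolog 2 (LOC105180737), a translational repressor of germ cells and neurons, was higher in brain with a log2 fold change of 0.75, but at 0.39 was not called when libraries were scaled by size alone (adjusted p = 0.055). Of 4 meiosis genes, 2 were lower and 1 was higher in brain, or 2 higher with the libraries over 3500000 counts; the lower pair, the homologous-pairing protein 2 homolog and meiotic nuclear division protein 1 homolog, work together in strand exchange and had log2 fold changes of −1.45 and −1.62.

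Genes of DNA replication were nearly all lower in brain. Of 18 genes, 17 were lower in brain and none was higher, against 33% lower among all tested genes, with a median of −0.84. The DNA replication licensing factor Mcm7 (LOC105184464), part of the helicase that opens origins, stood at 12.4, 14.1, 10.97 and 13.2 CPM in brains, against 83.2, 155, 189.5 and 69.2 CPM in ovaries, and fell by 3.30 ± 0.34 on the log2 scale in brain (adjusted p = 4.2e-05). Another gene of the same helicase (LOC105184711) fell by 3.22 ± 0.24. A ribonucleoside-diphosphate reductase gene (LOC105189123), of the enzyme that makes deoxynucleotides, stood at 59.1, 55.3, 51.4 and 54.8 CPM in brains, against 176, 227, 274 and 135 CPM in ovaries. No brain reached any ovary in these 3 genes. Only DNA primase small subunit (LOC105184148) did not pass, at 57.4, 62.2, 63.7 and 43.2 CPM in brains and 33.8, 59.2, 63.4 and 37.5 CPM in ovaries.

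Of 14 cell cycle genes, 6 were lower and 3 were higher in brain, against 31.3% lower and 35.8% higher among named genes. With the libraries over 3500000 counts 9 were lower and 3 higher. M-phase inducer phosphatase (LOC105189068), which activates the mitotic kinase, stood at 24.01, 19.4, 19.8 and 19.4 CPM in brains, against 111, 307.4, 305 and 89.7 CPM in ovaries, where ovaries 2 and 3 were again the highest. Geminin (LOC105181607), which limits replication to once per cycle, had a log2 fold change of −1.40. A polo-like kinase gene (LOC105186763) and G1/S-specific cyclin-D2 (LOC105191023) were higher in brain, with log2 fold changes of 2.05 and 1.73. All 4 histone genes were lower in brain, with a median of −1.84, led by a histone H2B gene (LOC105190168) at 5.65, 3.96, 3.28 and 1.62 CPM in brains, against 43.9, 48.3, 75.1 and 10.01 CPM in ovaries.

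**Figure D3:**
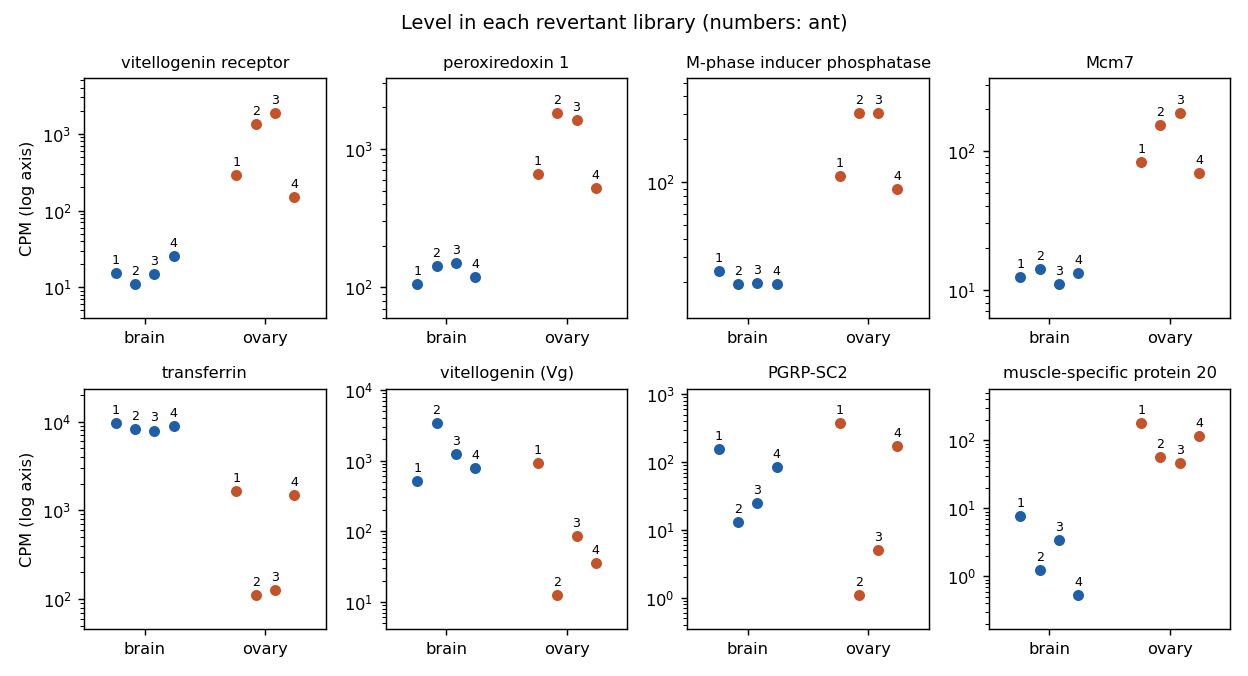
CPM on a log axis of 8 genes in the 4 brains (left) and 4 ovaries (right) of revertants, each point carrying the number of its library. In ovaries the vitellogenin receptor, peroxiredoxin 1, M-phase inducer phosphatase and Mcm7 are higher in libraries 2 and 3 than in 1 and 4, whereas transferrin, peptidoglycan-recognition protein SC2 and muscle-specific protein 20 are higher in 1 and 4.

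The split among ovaries touched genes of several tissues. Transferrin (LOC105192665), an iron-binding protein of blood and fat body, stood at 9581, 8359.7, 7963 and 8850.5 CPM in brains, against 1641, 112, 125 and 1477 CPM in ovaries, and was higher in brain with a log2 fold change of 3.37 ± 0.89 (adjusted p = 0.0092). Ovaries 1 and 4 were far above ovaries 2 and 3, and all brains were above all ovaries. Peptidoglycan-recognition protein SC2 (LOC105185773), which clears bacterial cell wall, stood at 154, 13.2, 24.6 and 84.97 CPM in brains, against 372, 1.11, 4.99 and 174 CPM in ovaries, and its log2 fold change was −0.98 (adjusted p = 0.56) with all 8 libraries and 4.52 with those over 3500000 counts, where it was called higher in brain (adjusted p = 0.011). Peroxiredoxin 1 (LOC105186023), a peroxide-removing enzyme, ran the other way among ovaries, at 106, 143, 149 and 119 CPM in brains, against 662, 1834, 1619 and 523 CPM in ovaries, and was lower in brain on either set of libraries.

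Markers of other tissues moved with this split. Of 17 muscle genes, 11 were lower and 1 was higher in brain, with a median of −1.84 (10 lower and 3 higher with the ant number as a block, and 11 lower and 3 higher, with a median of −0.99, with the libraries over 3500000 counts), and their summed level was 2263 to 2781 CPM in brains, against 4955, 3137, 2355 and 4637 CPM in ovaries 1 to 4. Muscle-specific protein 20 (LOC105189473) stood at 7.77, 1.26, 3.44 and 0.539 CPM in brains, against 178, 56.97, 46.3 and 118 CPM in ovaries. The immune list summed to 1588 to 3177 CPM in brains, against 4926, 832, 789 and 2441 CPM in ovaries. In brain 3 of its 14 genes were higher and 3 lower, against 35.8% higher and 31.3% lower among named genes. These counts became 7 higher and 2 lower with the libraries over 3500000 counts. Of 6 tested genes of fat body secreted proteins, 1, transferrin, was higher and 2 were lower in brain, with a median of −1.09, which became 2 higher and 2 lower with a median of 0.19 with the libraries over 3500000 counts. The shares among named genes given for the immune list apply here and to the muscle genes too. The fat body list, of which transferrin made up most in brains but not in ovaries 2 and 3, summed to 9301 to 11882 CPM in brains, against 2976, 644, 684 and 1727 CPM in ovaries. In each of these 3 sums ovaries 1 and 4 were above ovaries 2 and 3, and their part in the other differences was not tested. With the libraries over 3500000 counts alone, 13 of the 14 neuropeptide precursors were higher in brain and 17 of the 18 DNA replication genes lower.

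The yolk precursor vitellogenin-like (Vg, LOC105181726) was not separated between the tissues. It stood at 512, 3358, 1224 and 794 CPM in brains, against 920.1, 12.6, 85.6 and 35.5 CPM in ovaries, and ovary 1 lay above brains 1 and 4. Its log2 fold change was 2.49 ± 1.25 (adjusted p = 0.11). Without ovary 1 it was 5.04 (adjusted p = 0.0023), and with the libraries over 3500000 counts 4.88 (adjusted p = 0.0043), so ovary 1 decided whether it was called.

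Several named genes far outside the neural and egg lists were also among the 10 with the largest differences toward ovary. An O-acyltransferase like protein gene (LOC105191415) stood at 2.47, 2.16, 3.93 and 3.24 CPM in brains, against 511, 216, 139 and 428 CPM in ovaries, a log2 fold change of −6.79 ± 0.51. Growth/differentiation factor 8 (LOC105183286), a secreted ligand of the TGF-beta family, stood at 3.001, 1.98, 0.655 and 1.89 CPM in brains, against 111, 33.9, 20.6 and 101 CPM in ovaries. Collagen alpha-1(IV) chain (LOC105186475), a basement membrane protein, stood at 23.8, 60.8, 38.7 and 16.7 CPM in brains, against 549.9, 531, 367 and 754 CPM in ovaries. Ras GTPase-activating-like protein IQGAP1 (LOC105189343), a cytoskeletal scaffold, was the steadiest of them, at 4.06, 3.597, 3.11 and 4.32 CPM in brains, against 74.2, 63.2, 91.2 and 73.8 CPM in ovaries.

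Insulin signalling was the pathway the study centred on. The insulin gene itself, annotated as LIRP (Ins, LOC105188195), stood at 12.9, 27.97, 25.7 and 9.71 CPM in brains, against 1.51, 0.989, 0.483 and 1.67 CPM in ovaries, and was higher in brain with a log2 fold change of 4.21 ± 0.50 (adjusted p = 1.1e-04). All brains were above all ovaries, with brains 2 and 3 the highest. Insulin-like growth factor I (IGF, LOC105186969), the other insulin-like ligand, stood at 40.3, 20.1, 15.1 and 9.98 CPM in brains and 13.6, 22.2, 26.9 and 5.42 CPM in ovaries, with overlapping libraries (log2 fold change 0.28 ± 0.52, adjusted p = 0.65). The difference between the 2 ligands was not tested.

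Neither insulin receptor gene was called. Insulin receptor 1 (InR1, LOC105185958) stood at 249, 219.8, 208 and 221 CPM in brains and 253, 274, 197 and 335 CPM in ovaries, and insulin receptor 2 (InR2, LOC105183944) at 260.4, 255, 231 and 248 CPM in brains and 226, 358, 237 and 354 CPM in ovaries. Their libraries overlapped, with log2 fold changes of −0.24 ± 0.17 and −0.24 ± 0.18 (adjusted p = 0.24 and 0.27), and both were called lower in brain, at −0.61, when libraries were scaled by size alone. The secreted insulin-binding inhibitor Imp-L2 (LOC105183446) stood at 44.8, 57.2, 56.01 and 75.5 CPM in brains, against 12.6, 7.29, 7.88 and 16.7 CPM in ovaries, and was higher in brain with a log2 fold change of 2.45 ± 0.29 (adjusted p = 1.1e-04). The acid-labile subunit (ALS, LOC105189593), which binds growth factor complexes in blood, stood at 8.83, 13.1, 11.1 and 9.98 CPM in brains and 6.56, 8.404, 9.01 and 11.3 CPM in ovaries and was not called (adjusted p = 0.26).

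Among 14 genes of insulin and TOR signalling, 13 were tested, and 3 were higher and 5 were lower in brain, with a median of −0.24. The called members other than Ins changed by modest amounts. The list was matched on protein names and leaves out Imp-L2, which was higher in brain, and ALS. It holds another acid labile subunit gene (LOC105182703). The shares among named genes were 35.8% higher and 31.3% lower. Forkhead box protein O (FOXO, LOC105183293), the transcription factor that insulin holds out of the nucleus, stood at 85.1, 74.999, 74.2 and 56.4 CPM in brains, against 116, 102, 88.8 and 126 CPM in ovaries, and fell by 0.57 ± 0.16 on the log2 scale in brain (adjusted p = 0.013). Hamartin (LOC105188459), a brake on TOR, fell by 0.78 ± 0.13, and the catalytic subunit of phosphatidylinositol 3-kinase called in this direction (LOC105189236) fell by 0.72 ± 0.20. Growth factor receptor-bound protein 14 (LOC105181492), an adaptor that binds the insulin receptor, was higher in brain, with a log2 fold change of 0.82 ± 0.13. With the ant number as a block 3 genes were higher and 4 lower.

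The EGF receptor branch was divided between ligand and receptor. Protein vein (Vein, LOC105181399), a secreted ligand of the EGF receptor, stood at 48.7, 55.8, 51.3 and 49.1 CPM in brains, against 2.52, 3.21, 0.965 and 7.09 CPM in ovaries, and was higher in brain with a log2 fold change of 4.01 ± 0.44 (adjusted p = 6.7e-05). Epidermal growth factor receptor (Egfr, LOC105191569) stood at 81.7, 60.3, 50.4 and 45.6 CPM in brains, against 182, 259, 222 and 218 CPM in ovaries, and fell by 1.89 ± 0.20 on the log2 scale in brain (adjusted p = 6.2e-05). Neither gene overlapped between the tissues. In the 11 genes of this branch and of the MAP kinase pathway, 3 were higher, 3 were lower and 5 did not pass, with a median of 0.06. Among named genes 35.8% were higher and 31.3% lower. The feedback inhibitor protein sprouty (LOC105182585) stood at 351, 286, 273 and 324 CPM in brains and 230.0, 205, 134 and 451 CPM in ovaries. It was not called with all libraries (log2 fold change 0.28) and was called higher in brain at 0.69 without ovary 4 and at 0.82 with the libraries over 3500000 counts, which gave 5 higher and 3 lower genes in this list.

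Hormone genes other than insulin included a pair that varied strongly among brains. Of 9 tested genes of juvenile hormone and ecdysone, 6 were higher and 1 was lower in brain, with a median of 2.11, and 6 were higher and 2 lower with the libraries over 3500000 counts. Among named genes 35.8% were higher and 31.3% lower. A juvenile hormone acid O-methyltransferase gene (LOC105184533) stood at 98.7, 6.205, 43.4 and 4.32 CPM in brains, against 0.504, 1.73, 1.93 and 1.25 CPM in ovaries. Methyl farnesoate epoxidase (LOC105187618), another enzyme of juvenile hormone synthesis, stood at 67.6, 2.52, 30.95 and 7.01 CPM in brains, against 0.504, 1.61, 0.804 and 0 CPM in ovaries. Brains 1 and 3 were high and brains 2 and 4 low in both genes, which are known from the corpora allata, glands attached to the brain, and the part of gland tissue in these values was not tested. Broad-complex core protein (LOC105189635), an ecdysone-response factor, was steadier, at 78.4, 88.2, 81.7 and 64.2 CPM in brains, against 16.1, 18.9, 13.995 and 24.2 CPM in ovaries. Krueppel homolog 1-like (LOC112589664), the juvenile hormone response gene, stood at 107, 97.5, 70.3 and 64.5 CPM in brains and 157, 80.2, 44.7 and 65.9 CPM in ovaries and was not called.

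Lipid genes, which make fat, wax and cuticular hydrocarbons, were mixed. Of 44 genes, 22 were tested, 7 were higher and 4 were lower in brain, with a median of 0.21, against 35.8% higher and 31.3% lower among named genes. Of 23 tested with the libraries over 3500000 counts 9 were higher and 5 lower. The fatty acyl-CoA reductase gene that the study named (Far, LOC105192591) stood at 242, 229, 223 and 200.4 CPM in brains, against 27.2, 86.1, 91.5 and 35.9 CPM in ovaries (log2 fold change 1.87 ± 0.37, adjusted p = 0.002). An elongase gene (LOC105190303) stood at 20.1, 17.6, 17.9 and 12.1 CPM in brains, against 0, 0.618, 1.13 and 0 CPM in ovaries. The other 3 lipid genes the study named were too low to test: the elongase Elovl (LOC105190836) reached 2.13 CPM in brains and 1.01 CPM in ovaries, the desaturase Scd (LOC105190430) 0.270 CPM in brains and 12.2 CPM in ovaries, and the fatty acid synthase-like gene Fasn (LOC112590176) had 1 read in brain 4 and none elsewhere. 4-hydroxyphenylpyruvate dioxygenase (Hpd-1, LOC105183352), of tyrosine breakdown, stood at 42.9, 36.9, 56.5 and 26.7 CPM in brains, against 13.6, 19.8, 10.8 and 16.7 CPM in ovaries and was higher in brain (log2 fold change 1.42).

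Smaller lists gave a few further differences. All 3 genes of head and segment identity were higher in brain, with a median of 5.78. Paired box protein Pax-6 (LOC105180589), a regulator of eye and brain development, stood at 183, 164, 154 and 143 CPM in brains, against 0.504, 0.989, 0 and 1.25 CPM in ovaries. Of 6 antioxidant genes, 2 were higher and 3 were lower in brain, and a phospholipid hydroperoxide glutathione peroxidase gene (LOC105183432), which reduces lipid peroxides, stood at 157, 199, 186 and 173 CPM in brains, against 12.1, 3.21, 3.06 and 5.42 CPM in ovaries. Peroxiredoxin 1 and this peroxidase thus took opposite directions. Of 14 tested digestive and Malpighian tubule genes, 6 were higher and 5 were lower in brain, with a median of 0.26. Beside these and the antioxidant counts stand shares of 35.8% higher and 31.3% lower among named genes. Chymotrypsin-2 (LOC105182906), a gut protease, stood at 0, 0.0899, 0 and 0 CPM in brains, against 6.05, 5.93, 17.2 and 2.503 CPM in ovaries, a ratio of ovary over brain of 246 with a counting interval of 43.6 to 9781. Pancreatic lipase-related protein 2 (LOC105189231) stood at 148, 15.2, 16.4 and 78.8 CPM in brains, against 531, 421, 401 and 886 CPM in ovaries, and was lower in brain. The part of attached gut or tubule tissue in these values was not tested.

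Housekeeping machinery differed as well, by smaller amounts. Beside the counts that follow stand shares of 35.8% higher and 31.3% lower among named genes. Of 43 tested genes of cytosolic ribosomal proteins, 22 were lower and 1 was higher in brain, with a median of −0.63, and 60S ribosomal protein L23a (LOC105180561) stood at 116, 136, 151 and 137 CPM in brains, against 432, 353, 352 and 401 CPM in ovaries. Their summed level was 12406, 8023, 7576 and 11353 CPM in ovaries 1 to 4, again higher in ovaries 1 and 4, and the counts became 17 lower and 3 higher with the libraries over 3500000 counts and 18 lower and 0 higher with the ant number as a block. The respiratory chain went the other way. Of 13 genes of the mitochondrial respiratory chain, 8 were higher and none was lower in brain, with a median of 0.70, or 4 higher when libraries were scaled by size alone. Cytochrome c oxidase subunit 7C (LOC105190767), part of the last enzyme of the chain, stood at 88.8, 130.3, 129 and 118 CPM in brains, against 64.6, 40.04, 44.7 and 51.3 CPM in ovaries.

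The comparison with workers asked whether returning to the worker state left the difference between brain and ovary as it is in ants that never reproduced. Of 9798 genes, 0 (0%) had a tissue difference that differed between revertants and workers in edgeR's quasi-likelihood test, the lowest adjusted p was 0.325, and 662 genes (6.76%) had an unadjusted p under 0.05. DESeq2 called 10 genes with a larger and 3 with a smaller log2 fold change in revertants. Of the 5979 genes called in revertants and tested in workers, 5870 (98.2%) had the same direction in workers, and 4674 were also called there. A difference that misses the threshold does not show that the castes were alike. For Imp-L2 the log2 fold change of brain over ovary was 2.45 ± 0.29 in revertants and 2.43 ± 0.28 in workers, and for Ins, Crz and Vein all brains were higher than all ovaries in both castes.

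The comparison with gamergates asked where revertants differed from ants that still reproduced. Of 10131 genes, 2352 (23.2%) had a larger and 1927 (19%) a smaller log2 fold change of brain over ovary in revertants than in gamergates, 42.2% in all. Lane is the same for a tissue in both castes and so cancels in this difference, but all gamergate brains had fewer and all gamergate ovaries more than 3500000 counts, so that library size and tissue coincide in gamergates. The balance of directions depended on the scaling and on the library set. Upper quartile scaling gave 1447 larger and 3132 smaller differences, library size alone 1226 and 3442, thinning to the smallest library 1273 and 2196, and DESeq2 size factors 2056 and 2238, and leaving out any 1 ovary also made the smaller ones more numerous. The median difference over all genes was 0.06 with TMM, −0.30 with upper quartile scaling and −0.38 with library size alone. Adding library size class to the model left 1416 and 1429 genes. In these castes only the revertant ovaries lie on both sides of 3500000 counts. The size term therefore rests on revertant ovaries 2 and 3 against 1 and 4, and cannot be told apart from the split among ovaries described above. Of the 5992 genes called in revertants and tested in gamergates, 5490 (91.6%) had the same direction in gamergates.

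IGF differed most among the insulin genes. Scaled over all 24 libraries, it stood at 38.3, 18.996, 14.5 and 9.75 CPM in revertant brains and 14.3, 24.5, 28.9 and 5.83 CPM in revertant ovaries, against 2.82, 3.51, 1.62 and 0 CPM in gamergate brains and 370.3, 323, 317 and 283 CPM in gamergate ovaries. Revertant ovaries were below every gamergate ovary, and revertant brains above every gamergate brain. The log2 fold change of brain over ovary was 0.28 in revertants and −7.23 ± 0.27 in gamergates, a difference of 7.53 ± 0.75 (adjusted p = 3.5e-06). In gamergate brains 3 counts correspond to 1.67 to 1.81 CPM, so IGF lay near the floor there. The sizes of the gamergate fold change and of the difference therefore rest on few brain reads. ALS behaved likewise, with 6.86 to 12.1 CPM in revertant ovaries, against 78.6 to 165 CPM in gamergate ovaries, and a difference of 4.41 ± 0.36. Imp-L2 reversed its direction: it stood at 42.7 to 73.8 CPM in revertant brains and 8.01 to 17.9 CPM in revertant ovaries, against 20.3 to 27.01 CPM in gamergate brains and 45.9 to 66.1 CPM in gamergate ovaries. Its log2 fold change was −1.09 ± 0.15 in gamergates, and the difference was 3.61 ± 0.33 (adjusted p = 1.6e-06).

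**Figure D4:**
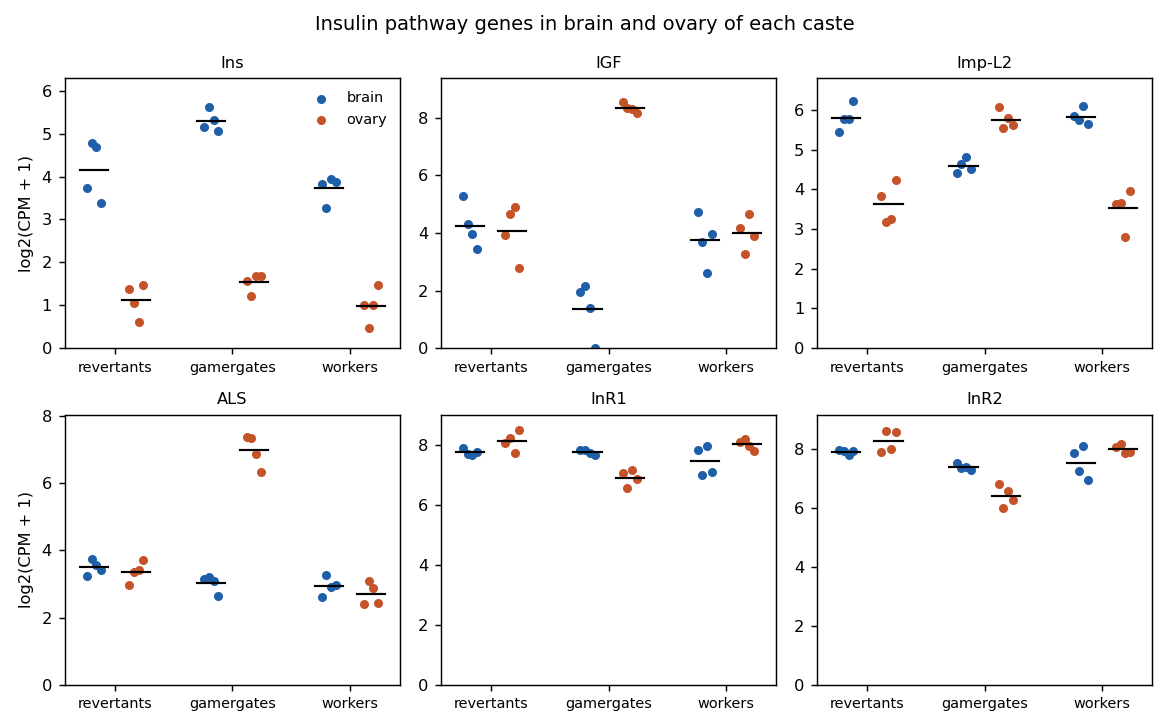
Log2(CPM + 1) of 6 insulin pathway genes in each brain (left of each pair) and ovary (right of each pair) of revertants, gamergates and workers, with group means as black lines. IGF, ALS and Imp-L2 are low in revertant and worker ovaries and high in gamergate ovaries, while Ins is higher in brain than in ovary in every caste.

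The differences of the receptors had the other sign. InR1 was at 212 to 360.2 CPM in revertant ovaries, against 93.2 to 143 CPM in gamergate ovaries, and InR2 at 237 to 393 CPM in revertant ovaries, against 63.5 to 111 CPM in gamergate ovaries. Their differences were −1.14 ± 0.21 and −1.26 ± 0.25 (adjusted p = 6.1e-04 and 8.7e-04). With library size class in the model IGF, ALS, Imp-L2 and InR2 kept their calls and InR1, at −0.66, did not. Crz, at 56.8 to 85.2 CPM in revertant brains, against 1.62 to 12.9 CPM in gamergate brains, had a difference of 4.79 ± 1.36 and also lost its call then, at 2.21. Without gamergate ovary 1 the difference for Crz was 4.02 (adjusted p = 0.06), and when libraries were thinned to the smallest it was 3.78 (adjusted p = 0.15). Far had a difference of 2.504, which was 0.49 and not called with library size class in the model. Vein had a difference of −2.02, which was −0.34 with library size class and −1.84 when thinned (adjusted p = 0.091), and was not called in either.

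Outside the insulin genes, those with the lowest p among named genes included head-specific guanylate cyclase (LOC105180850), an enzyme that makes cyclic GMP. It stood at 308 to 353 CPM in revertant brains and 0.897 to 1.21 CPM in revertant ovaries, against 232 to 266 CPM in gamergate brains and 22.9 to 35.9 CPM in gamergate ovaries, a difference of 5.40 ± 0.23 (adjusted p = 1.9e-09). The elongase LOC105190303 was higher in brain than in ovary in revertants and lower in brain in gamergates, whose ovaries held 118 to 218 CPM, against 0 to 1.21 CPM in revertant ovaries, a difference of 8.86 ± 0.61 that was 2.87 and not called once library size class was in the model. By list, the difference from gamergates was negative in 26 and positive in 1 of 45 ribosomal protein genes, positive in 9 and negative in 1 of 13 respiratory chain genes, and negative in 11 and positive in 1 of 17 muscle genes. Over all tested genes 23.2% were positive and 19% negative. These shares are not a like background, since list members have names through the study's lists of genes that differed between gamergates and other castes. The counts are therefore no support for a change particular to these lists. The directions of these lists held with upper quartile scaling and with library size alone. With library size class in the model no ribosomal protein gene was negative and 7 were positive. Of the muscle genes 2 were then negative and 1 positive, while 9 respiratory chain genes were positive and none negative. That term rests on the split among revertant ovaries, in which the sums of ribosomal protein and muscle genes also differed.

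**Figure D5:**
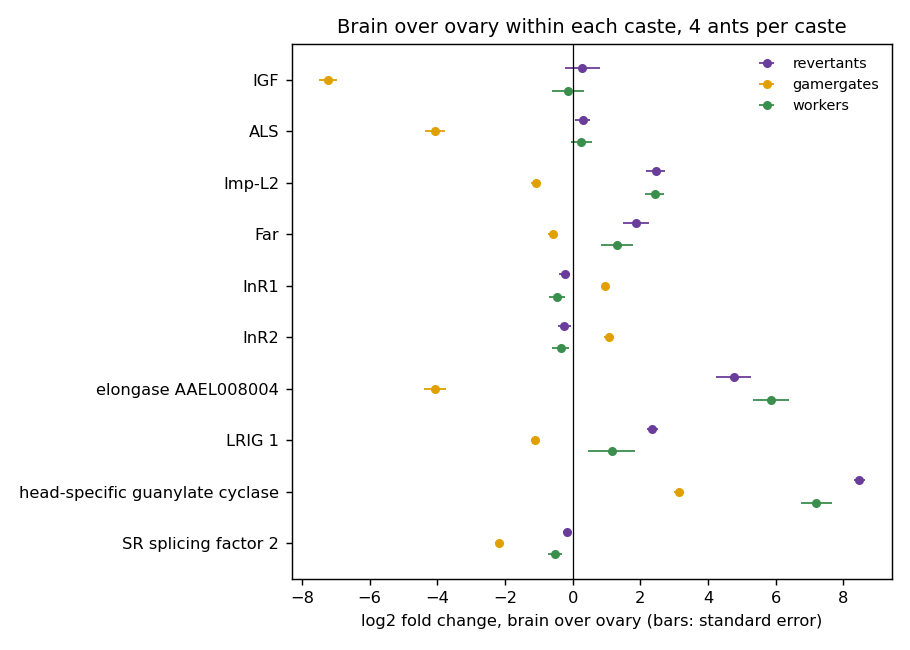
Log2 fold change of brain over ovary, with its SE, within revertants, gamergates and workers for 10 genes. Gamergates fall below both other castes for IGF, ALS, Imp-L2 and Far and above them for InR1 and InR2.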

How the data were processed

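PolyA RNA of brain, ovary and fat body of single ants was sequenced. The authors aligned reads with STAR (version 2.5.3a in the submitters' processing notes) after trimming with Trimmomatic, and deposited whole-number counts per gene, 1 table for brain and 1 for ovary. The counting program is not given in the sources used here, and whether counting used strand is not known. Fat body libraries (12) were not analysed here. Counts were used as deposited, joined by gene identifier (12654 genes). Protein names, available for 3332 genes, come from the study's lists of genes that differed between castes and from its list of gene symbols.

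Genes were filtered with filterByExpr, scaled by TMM and tested with edgeR's quasi-likelihood test (version 4.0.16, R 4.3.3), with 4 brain and 4 ovary libraries of revertants and Benjamini-Hochberg adjusted p under 0.05. Differences of the tissue effect from workers and from gamergates used an interaction over 16 libraries each. CPM are scaled by TMM over the 8 libraries, or over the 24 where stated. The floor is 3 counts. For a gene without a read in a tissue, the bound on its fold takes 3 counts over the 4 libraries of that tissue together. This is 0.161 CPM in ovaries and 0.113 CPM in brains, below the floor of a single library. DESeq2 (version 1.42.0) and other scalings, filters and library sets were tried as alternatives. The test was checked on simulated counts with known changes.

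Members and lists were chosen with earlier results of these data known. Named genes were the 15 genes the study names; per direction, the 10 called genes with a protein name, a mean log2 CPM of at least 3 and no overlap between tissues that changed most; up to 4 called members per direction of each list, by p, and uncalled members needed to account for it; and up to 5 genes per direction of each interaction. SIFamide-related peptide, allatostatin A and C, synapsin, rhodopsin, both juvenile hormone enzymes, the second glycoprotein 2B gene, dopamine N-acetyltransferase and vesicular glutamate transporter 1 were added after their values were seen.

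Libraries are single ants, so that p-values measure the spread between ants. In revertants the deviations of same-numbered brain and ovary libraries correlated at 0.156, 0.260, 0.192 and 0.208, each highest with its own number, and the numbers were taken to pair them. In workers (−0.151 to 0.139) and gamergates (0.040 to 0.076) they did not meet this criterion.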

Additional observations from a re-analysis of the deposited data

Results flagged for a closer look

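In 17 of 334 groups of 4 libraries, 5.09%, 1 library stood apart from the other 3 by Dixon's criterion, where chance gives about 1 in 20. All values are log2 CPM. The brains that stood apart were brain 3 for elongation of very long chain fatty acids protein (LOC105190836) at 1.31, brain 4 for fatty acid synthase-like (LOC112590176) at −0.68, brain 4 for glutamine synthetase 2 cytoplasmic (LOC105186780) at 11.09, brain 4 for odorant receptor 22c (LOC105188328) at 1.84 and brain 1 for M-phase inducer phosphatase (LOC105189068) at 4.61. The other brains that stood apart were brain 1 for maltase A2 (LOC105182242) at 9.20, brain 2 for aminopeptidase N (LOC105180903) at −1.17, brain 2 for chymotrypsin-2 (LOC105182906) at −1.17, brain 1 for cytochrome c1-2, heme protein, mitochondrial (LOC105191050) at 1.82 and brain 1 for acyl-CoA Delta(11) desaturase-like (LOC105189087) at 2.63. The ovaries that stood apart were ovary 3 for pro-corazonin (LOC105191954) at −0.96, ovary 4 for neuronal acetylcholine receptor subunit alpha-4 (LOC105185235) at 2.04 and ovary 1 for opsin, ultraviolet-sensitive (LOC105192184) at 2.79. The other ovaries that stood apart were ovary 2 for odorant receptor 4 (LOC105188533) at −0.47, ovary 3 for maltase A2 (LOC105182242) at 7.37, ovary 1 for fatty acid synthase-like (LOC112588711) at 6.62 and ovary 4 for vesicle-associated membrane protein 2 (LOC105189535) at 6.61. For pro-corazonin, the fatty acid synthase-like gene LOC112590176, odorant receptor 4, aminopeptidase N and chymotrypsin-2 the library that stood apart was one of few with a read.

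The tissue effect differed between revertants and gamergates, by the interaction term in edgeR, for 25 named genes, all of which were chosen as called. Values are the log2 fold change of brain over ovary in revertants minus that in gamergates. The difference was positive for elongation of very long chain fatty acids protein (LOC105190303) at 8.86, insulin-like growth factor I (LOC105186969) at 7.53, head-specific guanylate cyclase (LOC105180850) at 5.40, pro-corazonin (LOC105191954) at 4.79 and Acid-labile subunit (LOC105189593) at 4.41. The difference was also positive for PI-PLC X domain-containing protein 1 (LOC105183945) at 3.75, neural/ectodermal development factor IMP-L2 (LOC105183446) at 3.61, leucine-rich repeats and immunoglobulin-like domains protein 1 (LOC105181353) at 3.50, putative fatty acyl-CoA reductase CG5065 (LOC105192591) at 2.504, acetylcholinesterase (LOC105184473) at 2.28 and serine/arginine-rich splicing factor 2 (LOC105188373) at 2.07. The difference was negative for titin (LOC105184337) at −6.35, growth/differentiation factor 8 (LOC105183286) at −3.59, O-acyltransferase like protein (LOC105191415) at −3.02, muscle-specific protein 20 (LOC105189473) at −2.80 and WD repeat-containing protein CG11141 (LOC105183054) at −2.66. The difference was also negative for TELO2-interacting protein 1 homolog (LOC105184895) at −2.10, protein vein (LOC105181399) at −2.02, 1-phosphatidylinositol 4,5-bisphosphate phosphodiesterase epsilon-1 (LOC105182316) at −1.95, neuroblastoma-amplified sequence-like (LOC105181852) at −1.91 and RNA polymerase-associated protein RTF1 homolog (LOC105184033) at −1.80. The difference was negative and smaller for myosin-10 (LOC105182733) at −1.43, Insulin receptor 2 (LOC105183944) at −1.26, ras GTPase-activating-like protein IQGAP1 (LOC105189343) at −1.21 and Insulin receptor 1 (LOC105185958) at −1.14. With a term for library size class, acetylcholinesterase changed sign, to −2.44, and 10 of the others were no longer called. That term rests on revertant ovaries 2 and 3 against 1 and 4.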

How the results depend on the processing

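In the comparison of brain and ovary, the counts of genes higher and lower in brain stayed within 1.5 times of the values reported under every alternative tried except a log2 fold change of at least 1, which left 1673 genes lower in brain. Leaving out each library in turn gave 2826 to 3281 genes higher and 2802 to 3385 lower. With the ant number as a replicate block 3079 genes were higher and 2931 lower. Of 167 named genes 152 were called, and 0 of these changed sign. Of the called genes 13 lost the call under some alternative, 2 of them with the replicate block: 60S ribosomal protein L10a-like (0.93) and a lipid storage droplets protein (LOC105181685, −1.43). Leaving out a library took the call from 7.

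Genes not called with all 8 libraries changed sign, and with the libraries over 3500000 counts aromatic-L-amino-acid decarboxylase, peptidoglycan-recognition protein SC2 and torso-like protein were then called higher in brain. IGF was −0.083 with library size only, −0.23 with libraries over 3500000 counts, −0.20 without brain 1 and −0.022 without ovary 4 (−0.20 to 0.55 over all libraries left out). ALS was −0.067 with library size only. Ion transport peptide was 0.12 without ovary 4 (−0.53 to 0.12). Aromatic-L-amino-acid decarboxylase was 0.77 with the block, 0.67 without ovary 4 (−1.27 to 0.67) and 3.29 with libraries over 3500000 counts. Peptidoglycan-recognition protein SC2 was 0.52 with the block, 0.25 without ovary 1 (−1.75 to 0.25) and 4.52 with libraries over 3500000 counts. Torso-like protein was 0.17 with the block, 0.42 without ovary 4 (−0.54 to 0.42) and 1.27 with libraries over 3500000 counts. Excitatory amino acid transporter 1 was 0.011 with DESeq2 size factors or the DESeq2 test, 0.11 with at least 10 counts in every library, 0.032 when thinned, and −0.38 to 0.14 on leaving out a library. DNA primase small subunit was −0.14 with library size only and with libraries over 3500000 counts. Protein sprouty was −0.10 with library size only. Krueppel homolog 1-like was 0.093 with at least 10 counts, 0.088 with the block, 0.0027 when thinned, 0.40 with libraries over 3500000 counts, and −0.25 to 0.41 on leaving out a library. The cause was not tested.

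Against workers, where 0 genes were called, DESeq2 called 10 and 3, the replicate block 1 and 0, and a term for library size class 3 and 1. Leaving out each library gave 0 to 2 and 0 to 0, the 2 without worker ovary 3. Against gamergates, upper quartile scaling gave 1447 positive and 3132 negative differences, library size only 1226 and 3442, thinning to the smallest library 1273 and 2196, and library size class 1416 and 1429, while an adjusted p under 0.01 left 1195 negative. Leaving out each library gave 1734 to 2227 and 1703 to 2455. The replicate block took no call from the 25 named genes. It pairs libraries by number in gamergates and workers too, where the deviations did not meet the criterion used for revertants. Acetylcholinesterase was −2.44 with a term for library size class. The cause was not tested.

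Depth limits low genes most in ovaries 1 and 4, where 3 counts are 1.80 CPM and 1.44 CPM. Tissue and lane coincide. Gamergates and workers both came from the transition colony, so that caste and colony coincide only where revertants are set against them.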

Other observations

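Many of the strongest tissue genes carried no characterized name. Of the 50 largest log2 fold changes toward brain 26 belonged to genes with such a name, and of the 50 largest toward ovary 5 did. The following genes were chosen after their values were seen. LOC105190786 stood at 14926, 18125, 15365 and 16408 CPM in brains, against 11.1, 3.58, 5.63 and 5.01 CPM in ovaries. LOC105187957 stood at 0.353, 0, 0 and 0 CPM in brains, against 1917, 9847, 13213 and 841 CPM in ovaries, where ovaries 2 and 3 were the highest. LOC105185610 stood at 0, 0.0899, 0.328 and 0.270 CPM in brains, against 1661, 578, 746 and 851 CPM in ovaries, with ovary 1 the highest.

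No read was found in any brain for 7 genes that had at least 10 reads in every ovary, none of which has a characterized name. One of them, LOC105189928, stood at 101, 721, 1157 and 32.95 CPM in ovaries and was at least 4460-fold lower in brain, or at least 2527-fold without ovary 3.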
